A study of Homo sapiens with 6 samples.

Results

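Oxidative phosphorylation genes carried in the nucleus were read from RNA sequencing of LNCaP, an established, androgen-sensitive human prostate cancer cell line. The members were taken by gene symbol: names that start with NDUF and 1 of the letters A, B, C, S or V before a digit, or with UQCR, COX4 to COX8, or ATP5. The rule matched 84 rows, of which 4 were pseudogenes and were left out, so 80 of the 16000 genes in the table were members. Annotation divides the 80 into 77 protein-coding genes and 3 antisense transcripts (NDUFA6-AS1, NDUFB2-AS1 and NDUFV2-AS1). The 77 comprise 36 genes of complex I, 9 of complex III, 13 of complex IV and 19 of complex V. NDUFA4, named after complex I, was counted with complex IV, where its product sits, and so was its paralogue NDUFA4L2.

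The study compared 3 samples of ALDH high cells with 3 samples of ALDH low cells, numbered 1 to 3 in each group. ALDEFLUOR is a substrate that becomes a trapped fluorescent product when aldehyde dehydrogenase acts on it, and cells were sorted on that signal. ALDH high cells were the 10% with the strongest signal and ALDH low cells the 10% with the weakest. For both groups the labels give no drug and no genetic change, and the cells were grown in RPMI-1640 with 10% fetal bovine serum. Poly(A)-selected RNA was sequenced. The labels do not tell whether each sample was a sort of its own, and the p-values therefore cover only variation among these 6 samples, which may be technical.

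The respiratory chain is a row of protein complexes in the inner mitochondrial membrane. Complex I takes electrons from NADH and complex III passes them to cytochrome c. Complex IV gives them to oxygen, and complex V (ATP synthase) uses the proton gradient made on the way to produce ATP. The subunits come from both genomes: mitochondrial DNA encodes a few catalytic membrane subunits and nuclear chromosomes encode all others. The nuclear genes are spread over the chromosomes, so their transcripts are made separately and the proteins are assembled afterwards. Secretory prostate epithelium is known for holding back citrate oxidation, and prostate cancer cells are known to oxidise citrate again, which feeds this chain.

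Recovered read totals over genes ran from 23721265 in ALDH high 3 to 30467638 in ALDH low 1. The luminal prostate genes KLK3, HOXB13, KRT8, KRT18, TMPRSS2 and FOLH1 were present, and KLK3 reached 82289, 82340 and 88600 normalized reads in ALDH high against 83427, 78309 and 101683 in ALDH low. Of markers of other cells, the table listed 1 of 3 basal genes (KRT14), 1 of 4 leukocyte genes (CD68), 1 of 4 fibroblast genes (COL1A1) and 1 of 3 endothelial genes (VWF). The other markers were not analysed here. These 4 together took 0.00747% to 0.00810% of gene reads in ALDH high libraries and 0.00528% to 0.00689% in ALDH low libraries. These ranges did not overlap, and most of the reads came from COL1A1, with 1776, 1469 and 1692 in ALDH high against 821, 1451 and 1415 in ALDH low. Their part in the results was not tested. The libraries did not group as labelled. Across all genes, ALDH high 1, ALDH high 3 and ALDH low 2 correlated with each other at 0.990 to 0.991, and every other pair of libraries at 0.969 to 0.986.

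No respiratory subunit gene differed between ALDH high and ALDH low cells at an adjusted p under 0.05 (limma on log2(normalized reads + 1), adjusted over 16000 genes with the Benjamini-Hochberg method). The table as a whole held 0 called genes, 0%, by limma, edgeR and DESeq2 alike, while 338, 357 and 355 genes had an unadjusted p under 0.05 by these tools in that order. The smallest adjusted p of a member was 0.984 (limma). Most members nevertheless had slightly lower estimates in ALDH high cells: the log2 difference, ALDH high minus ALDH low, was below 0 in 68 of the 77 protein-coding members, against 47.7% of all genes. The median difference was −0.18 for the 77 members and 0.02 for all genes. Single members ran from −0.60 for UQCRB of complex III to 0.15 for NDUFA4L2. Among the 5418 genes averaging 1000 normalized reads or more, which are closer to the members in level, 54.7% were below 0 and the median was −0.02. A lower value can come from fewer cells that make the transcript or from less of it per cell, and these cannot be told apart in bulk RNA.

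The count below 0 rested on single libraries. It was 40 of 77 without ALDH low 3, with a median of −0.01, and 50 of 77 without ALDH high 2, with a median of −0.07. Without both samples numbered 2 it was 61 of 77, with a median of −0.15. With each library's trend over GC content and over the length of a gene's merged exons removed, 63 members were below 0 and the median was −0.10.

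The intervals show what these 6 libraries could resolve. The 95% interval of the difference included 0 in 75 of 77 members and lay within a 2-fold change either way in 74. Its median half-width was 0.45 on the log2 scale. The median SD within groups was 0.29 for members and 0.21 for genes averaging 1000 normalized reads or more. Read depth was high: the member with the lowest mean, UQCRHL, averaged 252 normalized reads, and the median over members was 4770. The lowest row mean of the table was 9.65, and all 80 members lie above that floor by construction, since they were taken from its rows.

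At an unadjusted p under 0.05, limma counted NDUFB3 and UQCRB among the 77, where it counted 2.11% of all genes in either direction and 0.737% lower in ALDH high. The quasi-likelihood test of edgeR on recovered reads counted 4 members (NDUFB3, NDUFS5, UQCRB and ATP5MD), with a background of 2.23%. DESeq2 counted 9 (the same 4 and NDUFA5, COX7C, ATP5F1C, ATP5F1E and ATP5MPL), with a background of 2.22%. All of these estimates were lower in ALDH high, and none held after adjustment in any of these tools. The limma count depended on single libraries: it was 20 members without ALDH low 2, 1 without ALDH low 1, 0 without ALDH high 2 and 13 without both samples numbered 2. The 3 ALDH high values lay below the 3 ALDH low values in 3 of 77 members (NDUFB3, ATP5PB and ATP5F1C), beside 3.32% of all genes. No member had its 3 ALDH high values above the 3 ALDH low values, beside 3.67% of all genes.

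**Figure D1:**
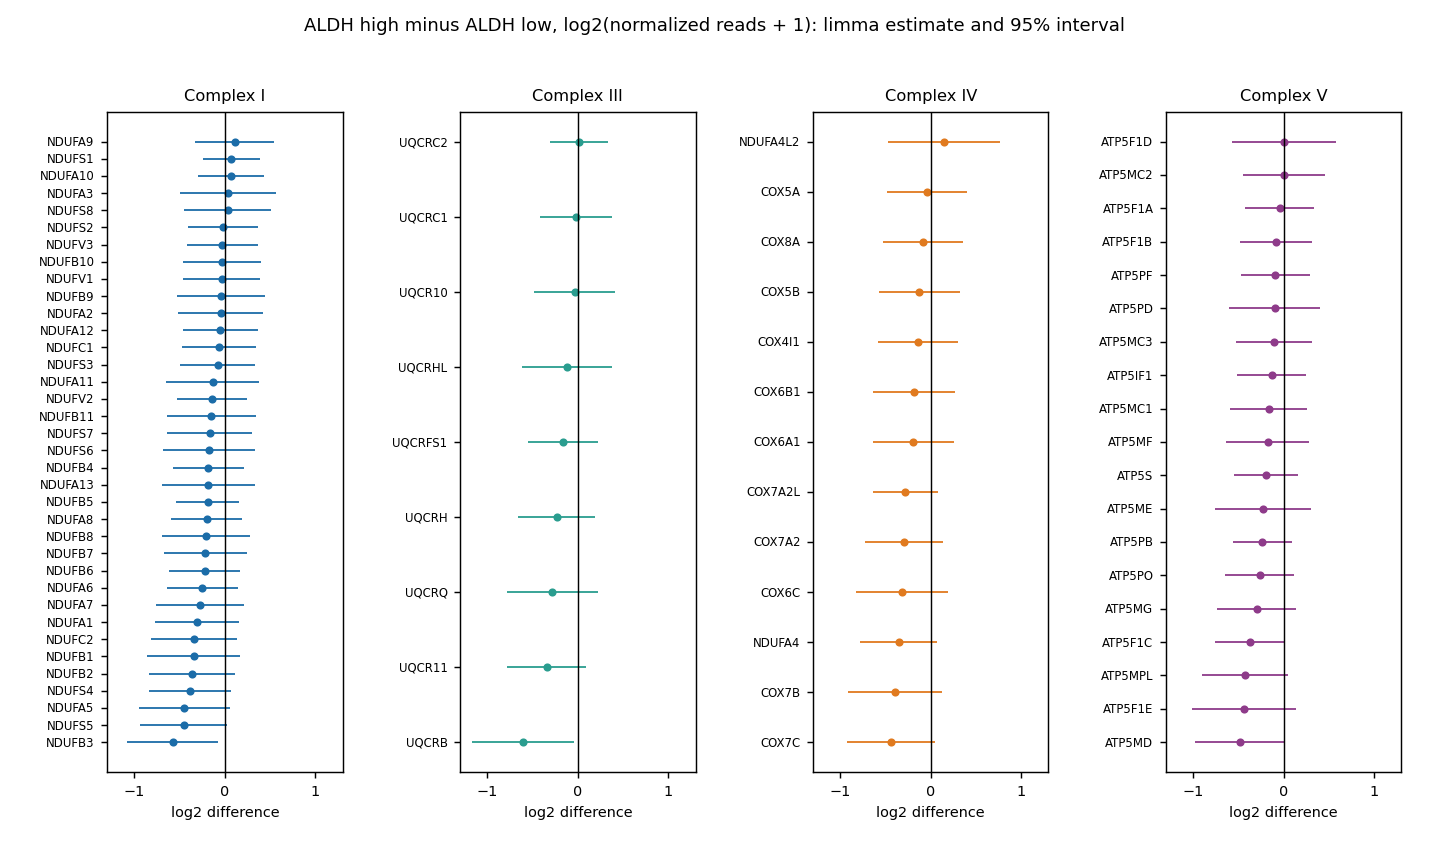
Difference of each of the 77 protein-coding members, ALDH high minus ALDH low, in log2(normalized reads + 1), by complex. Points are limma estimates and lines 95% intervals, and most points lie left of 0 while 75 of 77 lines cross it.

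The 5 promoters below belong to members with the lowest differences within their own complex, or to members whose groups did not overlap. UQCRB and NDUFS5, also among the lowest of their complexes, had no promoter to search. COX7B, ATP5F1E and ATP5MD, likewise among the lowest of theirs, are not printed. Many respiratory genes are known to be read under NRF1, GABPA, YY1 and ESRRA, transcription factors with short recognition sequences. Promoters came from RefSeq (GRCh38.p14), which covered 62 of the 77 members. The search ran from 250 bases before to 50 bases after each transcription start, on both strands, and the stretch from 120 bases before to 30 bases after the start is printed, 5′ to 3′ on the gene's strand. Capitals mark matches to GCGCA followed by any base and GCGC (NRF1), CCGGAAG (GABPA), AAGATGG (YY1) or AAGGTCA (ESRRA), or to their reverse complements.
NDUFB3, chr2:201071881-201072030, plus strand: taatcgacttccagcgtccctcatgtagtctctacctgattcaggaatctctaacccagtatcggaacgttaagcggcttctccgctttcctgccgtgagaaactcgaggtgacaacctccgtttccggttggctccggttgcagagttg
UQCR11, chr19:1605433-1605582, minus strand: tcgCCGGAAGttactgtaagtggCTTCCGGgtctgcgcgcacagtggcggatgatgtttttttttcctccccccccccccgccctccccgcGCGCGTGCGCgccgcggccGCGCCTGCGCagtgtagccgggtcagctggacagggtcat
COX7C, chr5:86617821-86617970, plus strand: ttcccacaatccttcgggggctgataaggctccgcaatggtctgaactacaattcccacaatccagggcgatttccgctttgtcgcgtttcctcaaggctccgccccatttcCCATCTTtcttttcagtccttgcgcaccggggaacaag
ATP5PB, chr1:111449344-111449493, plus strand: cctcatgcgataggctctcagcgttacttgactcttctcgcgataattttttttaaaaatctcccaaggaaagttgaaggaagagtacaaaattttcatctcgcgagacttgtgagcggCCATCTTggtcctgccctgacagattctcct
ATP5F1C, chr10:7788057-7788206, plus strand: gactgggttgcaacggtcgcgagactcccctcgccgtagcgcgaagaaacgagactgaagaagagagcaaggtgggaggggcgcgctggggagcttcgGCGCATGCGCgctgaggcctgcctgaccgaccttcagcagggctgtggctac

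UQCR11 held 4 matches: a pair of GABPA letters facing opposite ways and a pair of NRF1 letters close to the start. COX7C and ATP5PB each held 1 YY1 match just at the start, ATP5F1C held 1 NRF1 match, and the searched window of NDUFB3 held none. Of the low members not printed, COX7B and ATP5F1E held no match and ATP5MD held the GABPA letters. Over the 62 members, the NRF1 letters stood in 14 promoters, which is 22.6% of members, against 13.5% of 11142 other genes of the table and 5.78% of all 35116 RefSeq promoters. The GABPA letters stood in 19 members, 30.6% against 21.97% and 10.3%. The YY1 letters stood in 17 members, 27.4% against 9.39% and 5.84%, and the ESRRA letters in 9 members, 14.5% against 3.73% and 3.92%. At least 1 of the 4 stood in 42 members, 67.7% against 40.3% and 22.9%. No overlap between the 4 sets of letters was removed, members and other genes count as holding a motif if any of their listed starts does, and a match is a description of letters only.

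Complex I has a matrix arm, which holds the NADH site and the iron-sulphur clusters, and a membrane arm, which pumps protons. The members cover the core subunits of the matrix arm and the accessory subunits of both arms. Of the 36 members, 31 had a difference below 0, and the median was −0.17. The 7 core genes of the matrix arm had a median of −0.04 with 5 below 0. The 9 accessory genes of that arm had a median of −0.18 with 8 below 0, and the 20 accessory genes of the membrane arm −0.20 with 18 below 0.

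NDUFB3 (chromosome 2, 201071433 to 201085750, GRCh38) encodes a small accessory subunit of the membrane arm. Its normalized reads were 1407, 936 and 1493 in ALDH high 1, 2 and 3 against 2468, 1507 and 1747 in ALDH low 1, 2 and 3. All 3 ALDH high values were under the lowest ALDH low value, with ALDH high 3 just under ALDH low 2. The difference was −0.57 (SE 0.23, 95% interval −1.08 to −0.07), a fold of 0.671, with an adjusted p of 0.984 (limma). Its size depended on single libraries: it was −0.36 without ALDH high 2 and −0.37 without ALDH low 1. With the length and GC trend removed it was −0.37.

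NDUFS5 (chromosome 1, 39026318 to 39034636), another small accessory subunit, had 10007, 7887 and 10208 normalized reads in ALDH high against 16017, 9219 and 14087 in ALDH low. ALDH low 2 lay inside the ALDH high range, so the groups overlapped. The difference was −0.46 (95% interval −0.94 to 0.02). It was −0.29 without ALDH low 1, −0.69 without ALDH low 2 and −0.30 with the length and GC trend removed. NDUFS1 (chromosome 2, 206114817 to 206159603) encodes the largest core subunit, which carries iron-sulphur clusters, and it stood at the other end. It had 4666, 5087 and 4703 in ALDH high against 4703, 5030 and 4055 in ALDH low, with a difference of 0.07 (−0.25 to 0.39). NDUFA9 (chromosome 12, 4649095 to 4694317), an accessory subunit near the ubiquinone site, had 2148, 1829 and 2062 in ALDH high against 1385, 1948 and 2385 in ALDH low. Its difference was 0.11 (−0.33 to 0.55), and it was −0.10 without ALDH low 1.

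Complex III is a dimer in which the core proteins UQCRC1 and UQCRC2 face the matrix and the Rieske protein UQCRFS1 carries an iron-sulphur cluster. Of its 9 members, 8 had a difference below 0, and the median was −0.16. The core and Rieske genes had a median of −0.02, and all 6 small subunit genes were below 0 with a median of −0.26. UQCRB (chromosome 8, 96225920 to 96235634), a small subunit that binds ubiquinone, had 4491, 3207 and 4767 normalized reads in ALDH high against 9244, 4506 and 5753 in ALDH low. ALDH low 1 stood far above the other 5 libraries, and ALDH low 2 lay inside the ALDH high range. The difference was −0.60 (SE 0.25, 95% interval −1.16 to −0.04), with an adjusted p of 0.984 (limma). It was −0.31 without ALDH low 1, −0.83 without ALDH low 2 and −0.62 with the length and GC trend removed. UQCRB had the widest spread of all 77 members, 2.88-fold between its highest and lowest library.

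UQCR11 (chromosome 19, 1597172 to 1605490), the small subunit whose promoter held 4 matches, had 6139, 4869 and 7148 normalized reads in ALDH high against 8744, 5994 and 8311 in ALDH low. Its groups overlapped, and the difference was −0.34 (−0.78 to 0.09), or −0.19 without ALDH high 2. The core genes had estimates close to 0. UQCRC2 (chromosome 16, 21952660 to 21983660) had 8967, 8336 and 9569 in ALDH high against 8287, 9548 and 8740 in ALDH low, with a difference of 0.02 (−0.31 to 0.34). Its highest library was only 1.15-fold above its lowest, the narrowest spread of the 77. UQCRC1 (chromosome 3, 48599002 to 48610976) averaged 12835 ± 1495 in ALDH high against 13103 ± 2507 in ALDH low (SD, n = 3 each), with a difference of −0.02 (−0.42 to 0.38).

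**Figure D2:**
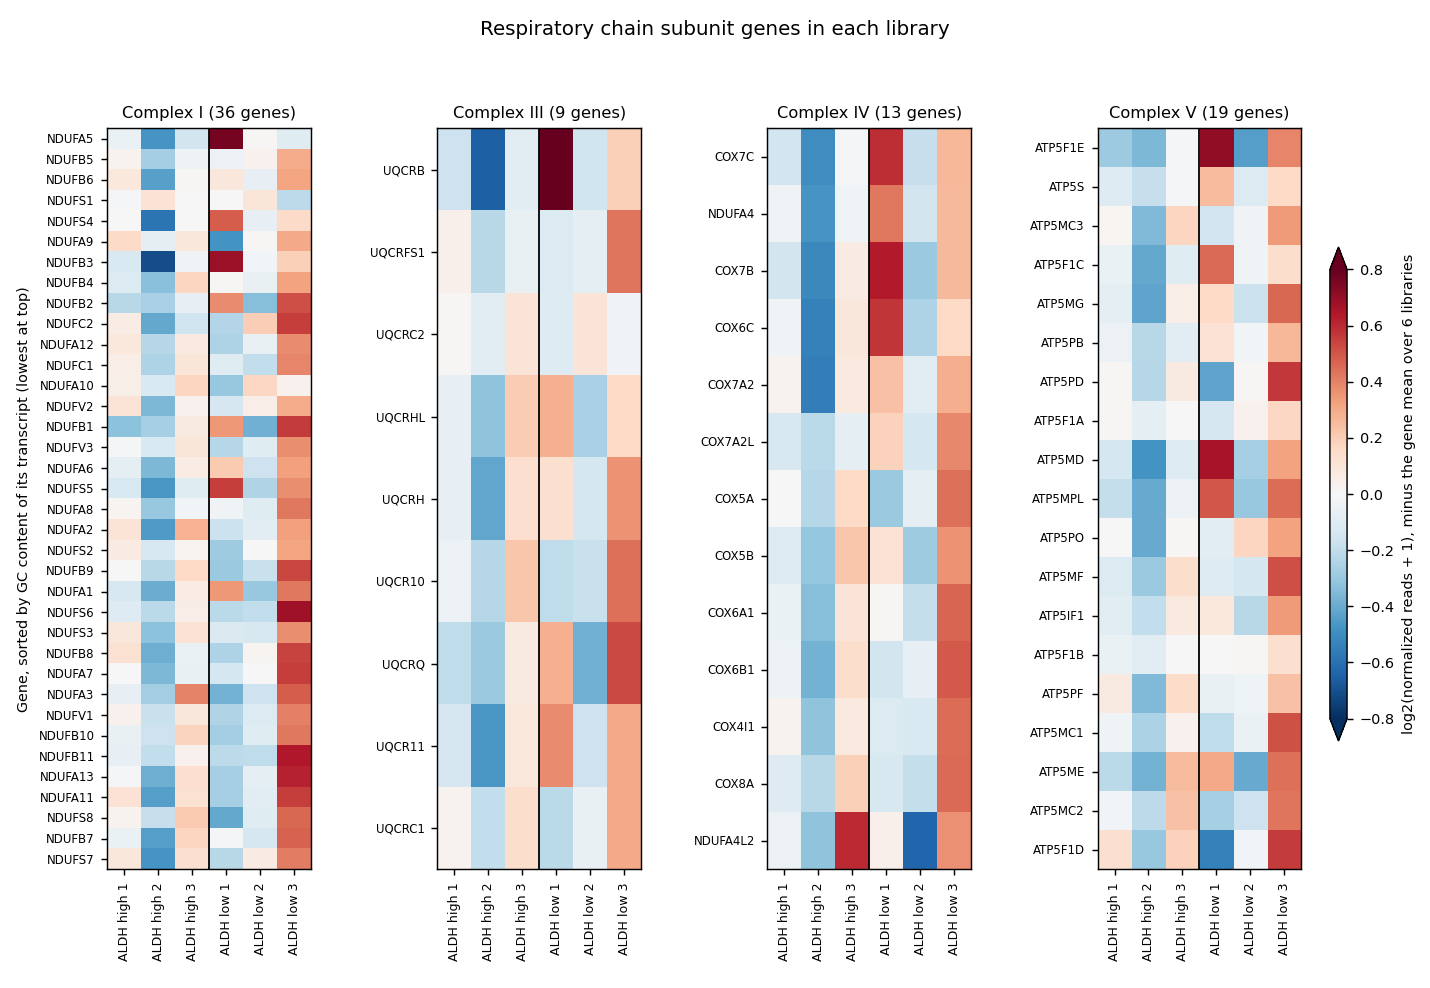
Each member's log2(normalized reads + 1) in each library, minus its mean over the 6 libraries, by complex and sorted by transcript GC content with the lowest at the top. ALDH high 2 is blue in most rows and ALDH low 3 red in most rows. ALDH low 1 is red mainly among the rows of low GC content, and colours stop at 0.8 either way.

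Complex IV reduces oxygen. Its nuclear subunits surround a catalytic core encoded by mitochondrial DNA, and several exist as paralogues whose use depends on the tissue. Of 13 members, 12 had a difference below 0, and the median was −0.19. All 11 standard subunit genes were below 0, also with a median of −0.19. COX7C (chromosome 5, 86617904 to 86620962), a small subunit, had 15288, 12076 and 16852 normalized reads in ALDH high against 25599, 14993 and 20429 in ALDH low. ALDH low 2 again lay inside the ALDH high range, and the difference was −0.44 (−0.93 to 0.04). It was −0.26 without ALDH low 1 and −0.21 with the length and GC trend removed. COX7B (chromosome X, 77899438 to 77907373), which encodes another small subunit, had 3445, 2670 and 3981 in ALDH high against 5910, 3096 and 4557 in ALDH low, with a difference of −0.40 (−0.92 to 0.13). That of COX7B was −0.24 without ALDH high 2, −0.18 without ALDH low 1, −0.64 without ALDH low 2 and −0.26 with the trend removed. COX5A (chromosome 15, 74919791 to 74938168), a subunit on the matrix side, had a difference of −0.04 (−0.49 to 0.40).

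NDUFA4L2 (chromosome 12, 57234903 to 57240715), the paralogue of NDUFA4 that is known as a hypoxia-induced gene, had the highest estimate of the 77. It had 2438, 2011 and 3798 normalized reads in ALDH high against 2594, 1623 and 3238 in ALDH low. The groups overlapped across most of their range, and the difference was 0.15 (−0.47 to 0.77). It was −0.11 without ALDH high 3 and −0.13 without ALDH low 2. COX7A2L (chromosome 2, 42333546 to 42425088), which encodes a factor that joins complexes III and IV, had 4316, 4055 and 4469 in ALDH high against 5356, 4274 and 6150 in ALDH low, with a difference of −0.28 (−0.64 to 0.08). It was −0.42 without ALDH low 2 and −0.16 without ALDH low 3.

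Complex V consists of the F1 head, which makes ATP, a rotating ring of c subunits in the membrane, a peripheral stalk and small membrane subunits that hold the enzyme in rows of dimers. Of 19 members, 17 had a difference below 0, and the median was −0.18. By place, the median was −0.09 for the 5 F1 genes, −0.17 for the 4 stalk genes, −0.11 for the 3 c-ring genes and −0.30 for the 5 membrane genes. ATP5PB (chromosome 1, 111448864 to 111462773), a stalk subunit, had 7480, 6601 and 7273 normalized reads in ALDH high against 8346, 7585 and 9270 in ALDH low. The highest ALDH high value was only slightly under the lowest ALDH low value. The difference was −0.24 (SE 0.15, 95% interval −0.56 to 0.09), with an adjusted p of 0.984 (limma), and it was −0.14 with the length and GC trend removed.

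ATP5F1C (chromosome 10, 7788129 to 7807815), the γ subunit at the axis of the F1 head, had 7545, 5900 and 7326 normalized reads in ALDH high against 10751, 7641 and 8647 in ALDH low. The groups did not overlap, and the difference was −0.37 (SE 0.17, 95% interval −0.76 to 0.01). It was −0.24 without ALDH low 1 and −0.21 with the length and GC trend removed. ATP5MD (chromosome 10, 103389041 to 103396492), a small membrane subunit, had 4064, 3211 and 4168 in ALDH high against 7061, 3721 and 5600 in ALDH low, with a difference of −0.48 (−0.98 to 0.02). For ATP5MD it was −0.27 without ALDH low 1, −0.73 without ALDH low 2 and −0.30 with the trend removed. ATP5F1E (chromosome 20, 59025467 to 59032382), the ε subunit of F1, had 5672, 5411 and 6905 in ALDH high against 11382, 5121 and 9129 in ALDH low. The lowest of its 6 values was in an ALDH low library and so was the highest, and the difference was −0.44 (−1.02 to 0.13). It was −0.20 without ALDH low 1, −0.77 without ALDH low 2 and −0.70 without both samples numbered 2. Antisense genes share 23.2% of its exon bases, and reads of both strands cannot be told apart if the libraries kept no strand.

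The catalytic β subunit gene ATP5F1B (chromosome 12, 56638175 to 56646068) had the most reads of all members, 55959, 54911 and 58312 in ALDH high against 57891, 58590 and 63544 in ALDH low. Its difference was −0.09 (−0.49 to 0.31). ATP5F1D (chromosome 19, 1241746 to 1244826), the δ subunit of F1 and the member of highest GC content, had 9249, 6843 and 9602 in ALDH high against 5807, 8348 and 12455 in ALDH low. Its difference was 0.00 (−0.57 to 0.57), with both extremes in ALDH low. ATP5IF1 (chromosome 1, 28236109 to 28246906), which encodes an inhibitor that stops the enzyme from running backwards, averaged 5709 ± 558 in ALDH high against 6319 ± 1210 in ALDH low (SD, n = 3 each), with a difference of −0.13 (−0.52 to 0.25).

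Paralogues that fill the same place were compared as shares of their summed reads. The c subunit has 3 genes with the same mature protein, ATP5MC1 (chromosome 17, 48892765 to 48895871), ATP5MC2 (chromosome 12, 53632726 to 53677408) and ATP5MC3 (chromosome 2, 175176258 to 175184607). ATP5MC3 gave 41.7% ± 1.49 of c-subunit reads in ALDH high against 42.5% ± 2.04 in ALDH low (SD, n = 3 each). ATP5MC2 gave 37.0% ± 1.15 in ALDH high against 34.9% ± 1.34 in ALDH low, and ATP5MC1 gave 21.3% ± 1.15 in ALDH high against 22.6% ± 0.772 in ALDH low. In each of the 3 genes the ranges of the groups overlapped. Shares of reads are not corrected for length, and ATP5MC3 has the longest of the 3 principal transcripts.

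NDUFA4L2 took 25.5%, 27.8% and 34.9% of the reads of the NDUFA4 pair in ALDH high against 21.1%, 19.9% and 27.2% in ALDH low. The means were 29.4% ± 4.90 in ALDH high against 22.7% ± 3.94 in ALDH low (SD, n = 3 each), with ALDH low 3 inside the ALDH high range. NDUFA4 (chromosome 7, 10931951 to 10940256) itself had 7114, 5214 and 7078 normalized reads in ALDH high against 9713, 6543 and 8660 in ALDH low, with a difference of −0.36 (−0.78 to 0.07). It was −0.21 without ALDH high 2 and −0.23 both without ALDH low 1 and with the length and GC trend removed. UQCRHL (chromosome 1, 15807169 to 15809348), a single-exon copy of UQCRH, took 2.30% ± 0.0713 of that pair in ALDH high against 2.15% ± 0.279 in ALDH low. Since the copies are near-identical, unique counting could have split their reads, and the share is uncertain. COX7A2 took 54.5% ± 4.89 of its reads with COX7A2L in ALDH high against 54.8% ± 1.45 in ALDH low. COX4I2, COX6A2, COX6B2, COX7A1, COX7B2 and COX8C, the partners of COX4I1, COX6A1, COX6B1, COX7A2, COX7B and COX8A, were not analysed here.

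Levels between genes were compared per kb of the principal transcript, as the mean over 6 libraries. Within complex I, NDUFS5 had the highest level, 20506 normalized reads per kb, and NDUFA9 the lowest, 234, an 87.5-fold range. In complex III the levels ran from 18438 for UQCRH to 956 for UQCRB and 116 for UQCRHL. In complex IV they ran from 20273 for COX6A1 to 1561 for COX7A2L, with COX8A at 17189 and COX4I1 at 17184. COX6A1 was above COX8A and above COX4I1 in 6 of 6 libraries, while COX8A was above COX4I1 in 3 of 6. In complex V they ran from 31648 for ATP5F1B and 30593 for ATP5MF, of which ATP5F1B was higher in 4 of 6 libraries, to 80.4 for ATP5S, which encodes coupling factor B and is no part of the enzyme core. Per kb of merged exons COX8A and not COX6A1 led complex IV, at 17189, and ATP5F1B led complex V at 25065. On that scale ATP5MF had rank 4 in complex V, at 4101, and COX4I1 rank 6 in complex IV, at 3131. Levels of genes with long annotated transcripts, such as NDUFS1 and NDUFA9, depend on the transcript chosen. So do those of genes with a short principal transcript, such as ATP5MF with 305 bases.

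**Figure D3:**
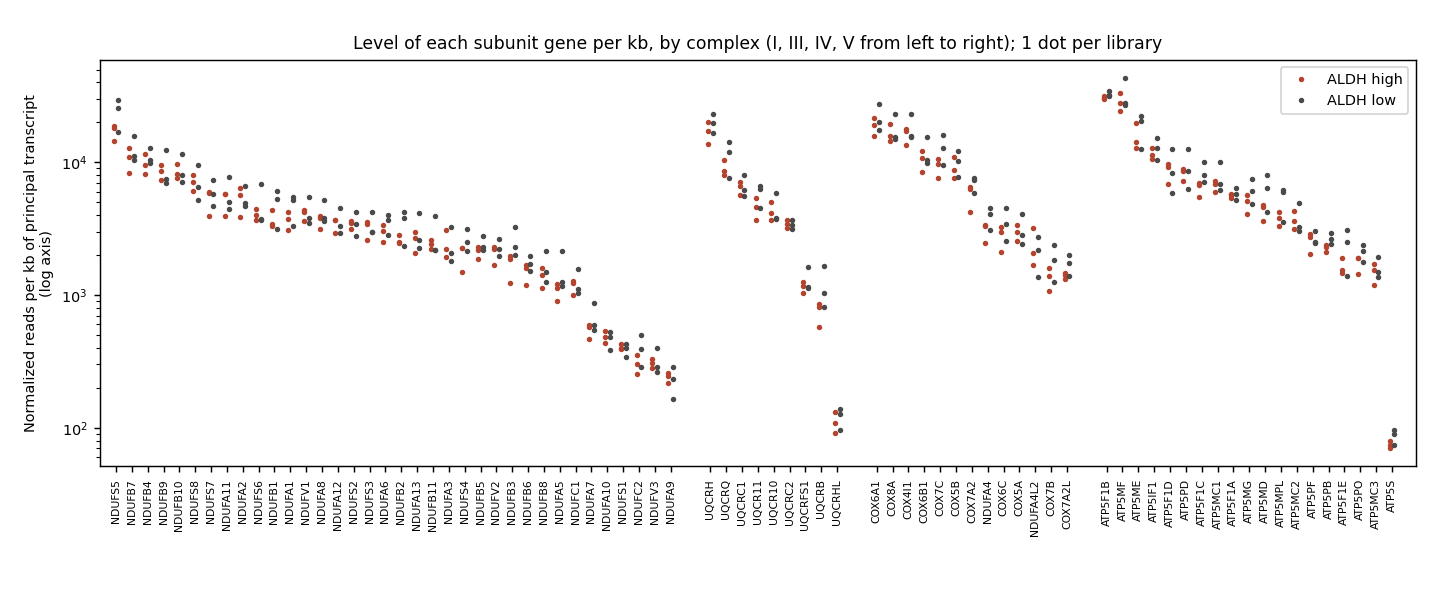
Normalized reads per kb of principal transcript on a log axis for each member, by complex from left to right and in falling order, with 1 dot per library for ALDH high and ALDH low. NDUFS5, UQCRH, COX6A1 and ATP5F1B lead their complexes, and the dots of the groups overlap in most genes.

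Summed over the 77 genes, the respiratory subunits took 1.76%, 1.53% and 1.87% of gene reads in ALDH high 1, 2 and 3 against 1.91%, 1.71% and 2.04% in ALDH low 1, 2 and 3. The means were 1.72% ± 0.173 in ALDH high against 1.89% ± 0.165 in ALDH low (SD, n = 3 each). The groups overlapped. Complex V took the most, 0.682% ± 0.0454 in ALDH high against 0.736% ± 0.0399 in ALDH low. The 13 subunits encoded by mitochondrial DNA, measured in the same libraries, had another order of libraries. They took 3.86%, 2.10% and 3.85% of gene reads in ALDH high against 1.23%, 3.57% and 2.18% in ALDH low. Of these 13 genes, 12 had a difference above 0, with a median of 0.60, and none was called. MT-ND4L, a complex I subunit, had the largest difference, 0.97 (0.16 to 1.78), with an adjusted p of at least 0.984 as for every gene of the table.

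**Figure D4:**
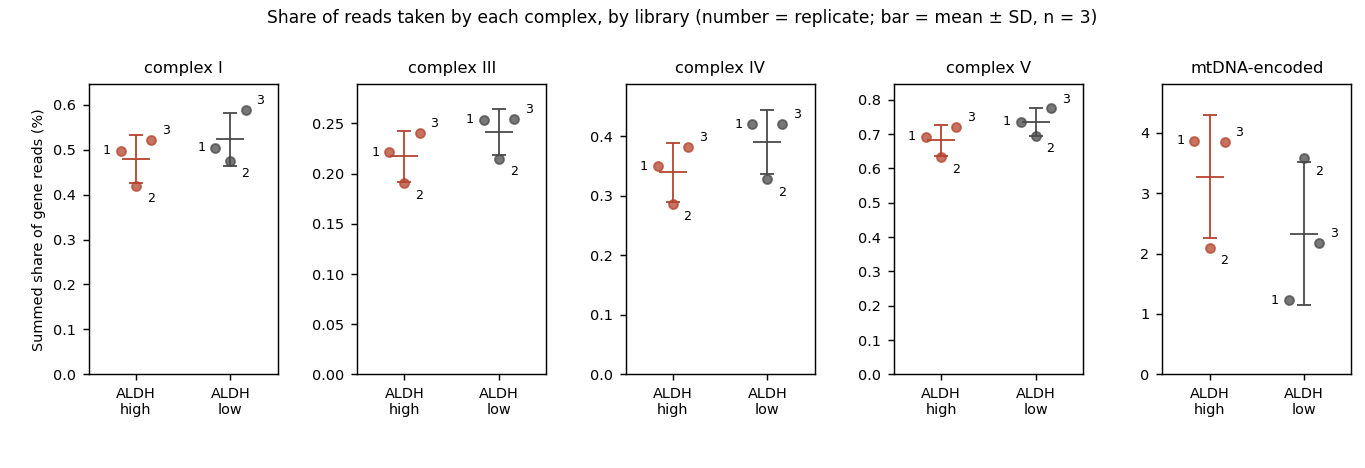
Summed share of gene reads of each complex's nuclear genes and of the 13 genes encoded by mitochondrial DNA in each library, ALDH high left and ALDH low right, with the mean and SD of 3 libraries and the replicate number beside each point. The nuclear groups overlap in every complex, and ALDH high 2 is the lowest library in each, while ALDH low 1 is the lowest for mitochondrial DNA.

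The members moved together by library. ALDH low 3 was the highest library for 57 of the 77 and ALDH low 1 for 16, while ALDH high 3 was highest for 3 and ALDH high 2 for NDUFS1 alone. ALDH high 2 was the lowest library for 50 and ALDH low 1 for 19. Over the 5418 genes averaging 1000 normalized reads or more, ALDH low 3 was highest for 40.8% and ALDH high 2 lowest for 22.3%. ALDH low 1 was highest for 17.7% of these genes and lowest for 28.8%, near the members' shares of 20.8% and 24.7%. The median deviation of the members from their own mean was −0.04, −0.32 and 0.08 in ALDH high 1, 2 and 3 against −0.06, −0.10 and 0.37 in ALDH low 1, 2 and 3, on the log2 scale. The distance between ALDH low 1 and ALDH low 3 was thus larger than the distance between the group medians.

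Which ALDH low library was highest went with base composition. Transcript GC content had a Spearman rho of −0.64 over 77 members, and of −0.58 over 11490 genes averaging 100 normalized reads or more, with the log2 difference of ALDH low 1 minus ALDH low 3. These points share 1 pair of libraries and are a description. With limits set after the data were seen, the 22 members under 45% GC were highest in ALDH low 1 for 11 and in ALDH low 3 for 10. They include UQCRB, COX7C, COX7B, NDUFB3, ATP5F1C and ATP5F1E. The 18 members over 55% GC, among them ATP5F1D, NDUFS7 and COX8A, were highest in ALDH low 3 for 17 and in ALDH low 1 for 0. The difference of ALDH high minus ALDH low had medians of −0.31 under 45% GC, −0.14 from 45% to 55% for 37 members and −0.11 over 55%. The rho of that difference with GC content was 0.45 over members and 0.12 over the 11490 genes.

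Transcript length moved with the same libraries. The members' principal transcripts had a median of 1039 bases, against 3253 for other protein-coding genes averaging 100 normalized reads or more. Over the 11490 genes, length had a rho of −0.62 with the deviation of ALDH low 3 and of 0.57 with that of ALDH high 2, and over the 77 members these were −0.49 and 0.27. The rho of length with the difference of ALDH high minus ALDH low was 0.14 over members and 0.45 over the 11490 genes. The part of GC content and length in the members' difference between groups was not tested beyond the estimate with their trend removed. The trend removed was over the length of merged exons, not of principal transcripts. Merged exons had a median of 2475 bases for members and 5286 for those other protein-coding genes.

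**Figure D5:**
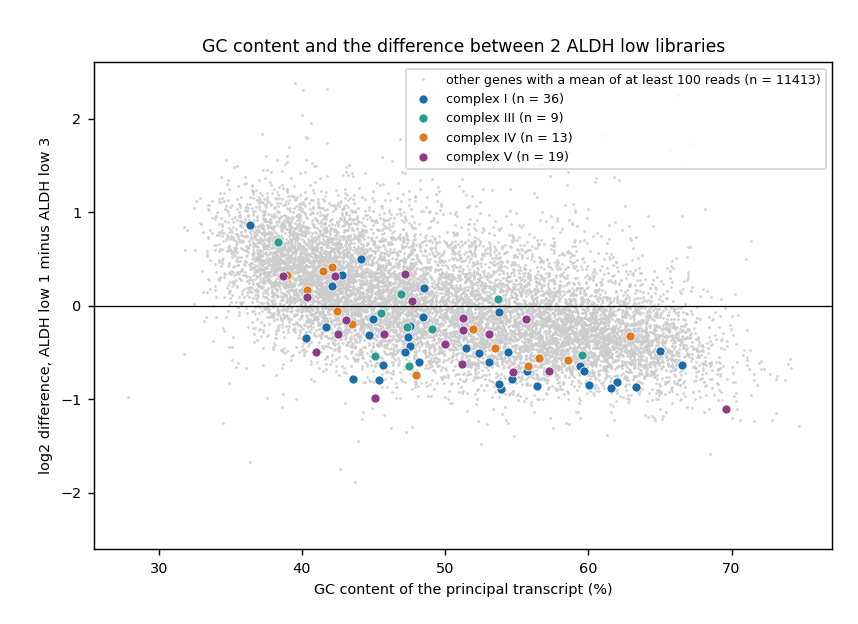
GC content of the principal transcript (%) against the log2 difference of ALDH low 1 minus ALDH low 3, for the 77 members coloured by complex and for 11413 other genes averaging 100 normalized reads or more in grey, with 3 genes outside the axes. Both sets slope down, and members of high GC content lie below 0.

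The other genes of the pathway gave no call either. The 4 genes of complex II, which links the citric acid cycle to the chain, were all below 0, with a median of −0.12. Nuclear chain genes that the symbol rule misses were close to the members, with differences of −0.16 for NDUFAB1 (the acyl carrier protein of complex I), −0.03 for CYC1 (cytochrome c1) and −0.16 for CYCS (cytochrome c). Assembly factors were below 0 in 5 of 6 for complex III (median −0.11), in 20 of 22 for complex IV (−0.20) and in 4 of 4 for complex V (−0.25). COX16, an assembly factor of complex IV, had the lowest of these differences, −0.53 (−1.02 to −0.05), and was the only gene of these lists with an unadjusted p under 0.05 (limma).

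The citric acid cycle lay on the other side of 0, with 9 of 13 genes above 0 and a median of 0.09. CS, citrate synthase, had 8111, 8368 and 8278 normalized reads in ALDH high against 4980, 8272 and 7090 in ALDH low. The 3 ALDH high values were close together, ALDH low 2 lay among them, and the difference was 0.31 (−0.11 to 0.73). Of 12 regulators of respiratory genes, 8 were below 0, with a median of −0.05. PPARGC1A, a coactivator of mitochondrial genes, had 42.9, 21.9 and 25.1 in ALDH high against 7.80, 26.4 and 13.9 in ALDH low, with a difference of 0.96 (−0.15 to 2.06) at these low levels. TFAM, which packages and transcribes mitochondrial DNA, had a difference of −0.27 (−0.69 to 0.15), and ESRRA one of −0.25 (−0.63 to 0.13). NRF1, GABPA and YY1, whose letters were also searched for, had differences of −0.07, −0.004 and −0.03.

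The 3 antisense transcripts had few reads. NDUFA6-AS1 had 89.0, 76.6 and 96.0 normalized reads in ALDH high against 106, 114 and 65.3 in ALDH low, with a difference of −0.09. NDUFB2-AS1 and NDUFV2-AS1 had differences of −0.23 and 0.03. Some protein-coding members share sequence with other loci. Named pseudogenes exist for 42 of the 77, 149 in all, and unique counting loses reads that fit a copy as well. In 10 members antisense genes share more than 20% of exon bases, led by ATP5ME with 61.6% and NDUFS7 with 49.1%, and in 5 members genes on the same strand do, led by COX8A with 34.5%.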

How the data were processed

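Poly(A) RNA was sequenced from 3 ALDH high and 3 ALDH low samples of LNCaP cells. Per the submitters' processing notes, Trimmomatic 0.36, STAR 2.5.2b, featureCounts of Subread 1.5.2 and DESeq2 were used with GRCh38, and per the labels' protocols only uniquely placed reads in exons were counted. The table deposited by the authors holds a normalized signal, that is, counts scaled by a single size factor for each library. The authors' deposited table also gives log2 fold changes, ALDH low over ALDH high, with p-values, and these were not used for the results. Of its 16046 rows, 46 spike-in rows were left out. Whole reads were recovered from the steps of the values, of which at least 99.99% were whole within 0.02 read in every library.

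The members and gene lists were chosen with earlier results of these data known. The main test was limma 3.58.1 (R 4.3.3) on log2(value + 1), its variance prior following the mean, over all 16000 genes, with a Benjamini-Hochberg threshold of 0.05. Fold changes on this scale understate those of low genes. The edgeR 4.0.16, DESeq2 1.42.0 and limma-voom tests of recovered reads, other scalings, pseudocounts of 0.5 and 5, a filter at a mean of 100, removal of the length and GC trend, and leaving out each library were the alternatives. The limma step was tested on simulated counts that held no library-wide trends over GC content or length, so that test does not cover such trends. Names, coordinates, lengths and GC content came from GENCODE 29, which matched 15939 identifiers and restored 66 names. The genes named were the members whose groups do not overlap, the highest and lowest differences, the highest and lowest levels per kb in each complex, and paralogue sets. Other genes named were chosen after their values were seen.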

Additional observations from a re-analysis of the deposited data

How the results depend on the processing

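Under 19 alternative settings no member was called, and the differences of the named members kept their sign except where given here. With any 1 library left out, the count of members below 0 ran from 40 to 75, and 40 was the count without ALDH low 3, when the median difference was −0.01 for the members and 0.00012 for complex I. Leaving out both samples numbered 2 gave 107 called genes in the whole table, 75 higher and 32 lower in ALDH high, and no member among them. Deviations of same-numbered samples correlated at −0.46, −0.43 and 0.14, and each ALDH high sample correlated best with an ALDH low sample of another number. These correlations share libraries and depend on each other, so they cannot tell whether samples of the same number belong together. The fit with the replicate block called 0 genes, with 68 members below 0 and the same median of −0.18, and counted 11 members at an unadjusted p under 0.05 against 2 without it. Total-count scaling raised the median of all genes by 0.04 and left 59 members below 0.

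Differences near 0 changed sign. Under total-count scaling UQCRC1 was 0.025 and COX5A 0.0016. ATP5MC2 was −0.00090 under TMM scaling. ATP5MC2 and ATP5F1D were −0.024 and −0.053 under edgeR, −0.022 and −0.051 under DESeq2, and −0.0018 and −0.0014 under limma-voom. With the length and GC trend removed, NDUFS1 was −0.034, UQCRC1 0.0089, UQCRC2 −0.0015, COX5A 0.11, COX8A 0.042 and ATP5MC2 −0.010. Without both samples numbered 2, UQCRC1 was 0.040 and COX5A 0.011. The cause was not tested. With 1 library left out, the ranges that crossed 0 were −0.27 to 0.28 for ATP5F1D, −0.13 to 0.13 for UQCRC1, −0.28 to 0.0087 for UQCRHL, −0.20 to 0.17 for COX5A, −0.22 to 0.039 for ATP5MC3, −0.033 to 0.072 for UQCRC2, −0.13 to 0.37 for NDUFA4L2, −0.13 to 0.22 for ATP5MC2, −0.10 to 0.29 for NDUFA9, −0.015 to 0.14 for NDUFS1, −0.21 to 0.11 for COX8A, −0.30 to 0.017 for COX6B1, −0.28 to 0.0031 for ATP5IF1, −0.24 to 0.042 for COX4I1 and −0.31 to 0.044 for ATP5MC1. The members' read depth was high. The width of an interval rests on a variance that combines a gene's own spread within groups with that of genes of similar mean. ATP5F1B, for example, had a within-group SD of 0.06 on the log2 scale and an SE of 0.18.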
